A study of Rattus norvegicus with 170 samples.

Results

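The calcineurin and NFAT pathway was followed through 10 genes of its core: the calcineurin subunits *Ppp3ca*, *Ppp3cb* and *Ppp3r1*, the calcineurin regulators *Rcan1* and *Rcan2*, and the transcription factors *Nfatc1*, *Nfatc2*, *Nfatc3*, *Nfatc4* and *Nfat5*. They were chosen by name, as the symbols of these proteins in the table of 24113 genes, and all 10 are listed there. Calcineurin is a phosphatase that calcium signals switch on. It removes phosphates from NFATc1 to NFATc4, which then enter the nucleus, while kinases that include DYRK1A and GSK3B put phosphates back and send the factors out again. In pancreatic β-cells the pathway is known for its part in replication and in the upkeep of insulin gene expression.

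The study treated islets of male, wild type Sprague Dawley rats, 8 weeks old, with GNF4877, an inhibitor of DYRK1A and GSK3B, at 3 µM or with its vehicle, 0.1% DMSO, for 48 h in medium with 5.5 mM glucose. Islets were picked by hand and their cells were captured and sequenced singly, which gave 86 cells after DMSO and 84 after GNF4877. Each treatment is 1 sample, run on its own plate and lane, so animal, chip, lane and treatment cannot be told apart and no difference between treatments was tested. All values are RPM, reads of a gene scaled to 1000000 mapped reads of the cell, and a cell counts as holding a gene from its first read. Since RPM is not divided by transcript length, levels are compared between cells and not between genes.

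Cells with *Ins1*, an insulin gene, at 1000 RPM or more are called Ins1-high here: 78 after DMSO and 59 after GNF4877. Their β-cell markers (8 of the 9 on the list are in the table) summed to medians of 15653 and 15414 RPM, with *Ins2* the largest part of the sum in each group. Genes within the sum went opposite ways: *Ins2* averaged 20047 and 10320 RPM, and *Iapp* 1578 and 4539 RPM. The median of *Ins1* itself was 35216 RPM after DMSO and 24380 RPM after GNF4877. *Mafa*, a factor of mature β-cells, had no read in the GNF4877 group and was read in only 5 of the 78 DMSO cells, at a mean of 0.129 RPM. Cells with *Gcg*, the glucagon gene, at 1000 RPM or more and *Ins1* below that are called alpha cells: 5 and 18. The 9 α-cell markers summed to medians of 413099 and 274728 RPM in them, with none of the 9 at 0 in either group. *Mafa* and the β-cell factor *Nkx6-1* had no read in them. The other β-cell markers in the table had reads, apart from *Pdx1* after GNF4877, and the list summed to medians of 764 and 170 RPM. Alpha cells, too, had more genes read after DMSO, a median of 7026 against 5864.5.

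The groups also differ in markers and in the number of genes read. A second hormone at 1000 RPM or more was present in 25 of the 78 Ins1-high DMSO cells against 4 of the 59 GNF4877 cells. The α-cell markers averaged 45408 RPM in the first group, mostly *Gcg*, and 1619 RPM in the second, while their medians were 1315 and 882 RPM. *Irx1* and *Irx2* were at 0 in the second. Markers of mesenchymal cells had medians of 1.45 and 0.706 RPM and means of 249.8 and 1.04 RPM, with the highest DMSO cell at 11248 RPM. Acinar and endothelial markers had medians of 0 in both groups, and duct markers, mostly *Krt7*, of 157 and 153 RPM. The means of acinar markers were 5.97 and 0.858 RPM, and those of endothelial markers 12.6 and 3.93 RPM, lower after GNF4877. Immune markers, mostly *Cd74*, averaged 11.4 RPM after DMSO and 58.7 RPM after GNF4877, up to 981 RPM in a cell, while their medians were 0.723 and 0 RPM. Median listed reads were 1104530 in Ins1-high DMSO cells and 1297190 in GNF4877 cells, yet a median of 8938 genes had a read in the first group and 7031 in the second, or 6621 and 4918.5 when every cell was thinned to 100000 reads. GNF4877 cells thus had fewer genes read at equal depth too. The part of this and of the markers in the results was not tested.

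*Ppp3ca*, the α isoform of the catalytic subunit, ranged in Ins1-high DMSO cells from 0 over a median of 55.7 to 249.9 RPM. In GNF4877 cells it ranged from 0 over 28.2 to 668 RPM. The means lie close, 63.3 and 57.9 RPM, while the spread does not: at its top stood GNF4877 cells above every DMSO cell, and at its foot more of them had no read. It was read in 75 of 78 DMSO cells (96.2%) and in 45 of 59 GNF4877 cells (76.3%, 95% interval 63.4 to 86.4). The log2 ratio of the means, with 1 RPM added to each here and in every log2 ratio that follows (but not in folds), was -0.13, and -0.41 without the highest GNF4877 cell, which alone held 19.6% of the group's sum.

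*Ppp3cb*, the β isoform of the catalytic subunit, followed the same pattern. Its values ran from 0 over 6.57 to 135 RPM after DMSO and from 0 over 0 to 225 RPM after GNF4877. The means were 23.05 and 23.7 RPM (log2 ratio 0.04), with a read in 58 of 78 cells (74.4%, 63.2 to 83.6) against 26 of 59 (44.1%, 31.2 to 57.6). Fewer GNF4877 cells held the transcript, and those that did held more of it.

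*Ppp3r1*, which encodes the calcium-binding regulatory subunit that each catalytic subunit needs, was lower in mean and in median after GNF4877. DMSO cells ran from 0 over 45.3 to 221 RPM and GNF4877 cells from 0 over 5.46 to 252 RPM. The mean of 24.03 RPM after GNF4877 was 2.56-fold lower than the 61.5 RPM after DMSO (log2 ratio -1.32). At 10 RPM or more stood 67 of 78 DMSO cells and 23 of 59 GNF4877 cells, so most of the treated cells lay under a level that most of the control cells exceeded, although the full ranges overlap.

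*Rcan1* and *Rcan2* encode regulators that bind calcineurin and, at high amounts, inhibit it, and *Rcan1* is itself a known NFAT target. *Rcan1* was absent from most cells: it was read in 31 of 78 DMSO cells (39.7%, 28.8 to 51.5), with a highest value of 185 RPM, and in 8 of 59 GNF4877 cells (13.6%, 6.04 to 24.98). Those 8 cells held 495, 268, 109, 99.7, 73.98, 3.80, 0.903 and 0.497 RPM. The mean after GNF4877, 17.8 RPM against 12.6 RPM (log2 ratio 0.46), therefore rests on 5 cells, and without the highest of them the ratio is -0.37. Fewer treated cells held *Rcan1*, and 2 of them held more than any DMSO cell.

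*Rcan2* was read in almost every cell of both groups, 76 of 78 and 55 of 59. Its level ran from 0 over 47.8 to 452 RPM after DMSO and from 0 over 5.86 to 363 RPM after GNF4877. The means of 85.4 and 29.1 RPM differ 2.94-fold, lower after GNF4877 (log2 ratio -1.52), and 1 GNF4877 cell held 21.2% of its group's sum. A level of 10 RPM or more was reached by 65 of 78 DMSO cells (83.3%) and by 15 of 59 GNF4877 cells (25.4%, 14.98 to 38.4). Most treated cells thus kept a trace of *Rcan2* at a level few control cells were as low as.

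Among the NFAT factors, *Nfat5*, the member that answers to osmotic stress and lacks the calcineurin-binding region of the others, was read in 78 of 78 DMSO cells and 58 of 59 GNF4877 cells. It ran from 0.752 over 153 to 2040.1 RPM after DMSO and from 0 over 40.5 to 388 RPM after GNF4877. The mean of 93.4 RPM was 2.50-fold lower than 234 RPM (log2 ratio -1.31). The median treated cell was well below the median control cell, and every treated cell lay inside or below the range of the control cells. *Nfat5* is the only member listed as several transcripts, 4, and 1 of them held 95.2% of its RPM after DMSO and 97.1% after GNF4877.

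*Nfatc3*, a calcium-regulated factor, was read in 60 of 78 DMSO cells (76.9%, 66.003 to 85.7) and 24 of 59 GNF4877 cells (40.7%, 28.1 to 54.3). Its values ran from 0 over 3.09 to 282 RPM and from 0 over 0 to 452 RPM. The means of 24.5 and 22.004 RPM (log2 ratio -0.15) hide this difference in spread, since 1 GNF4877 cell held 34.8% of the group's sum. Without that cell the log2 ratio is -0.71, without the highest DMSO cell it is 0.06 and without both -0.51, so its direction rests on single cells.

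*Nfatc1*, which induces its own short isoform in lymphocytes, was found in 13 of 78 DMSO cells, up to 135 RPM, and in 3 of 59 GNF4877 cells, at 76.6, 1.69 and 0.595 RPM. The means were 8.13 and 1.34 RPM, 6.08-fold lower after GNF4877 (log2 ratio -1.97), from 818 and 86 reads with counting intervals of 763 to 876 and 68.8 to 106. Nearly all of the treated group's sum, 97.1%, came from 1 cell. *Nfatc2*, the factor first purified from T cells, had 43 reads in 6 of 78 DMSO cells, at most 15.5 RPM, and none in 59 GNF4877 cells. The DMSO cell with the most held 57.01% of the group's sum. Intervals of the share of cells with a read, 7.69% (2.88 to 15.99) and 0% (0 to 6.06), overlapped, and no fold is given. *Nfatc4* had 44 reads in 2 of 78 DMSO cells, nearly all in 1 cell at 56.1 RPM, and none after GNF4877. Its difference rests on that cell, and no fold is given for it either. Expression of these 3 factors was a matter of few cells in either group, and the intervals given here and elsewhere cover counting error alone, because the reads carry no molecular identifiers and copies made by PCR count as reads.

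**Figure D1:**
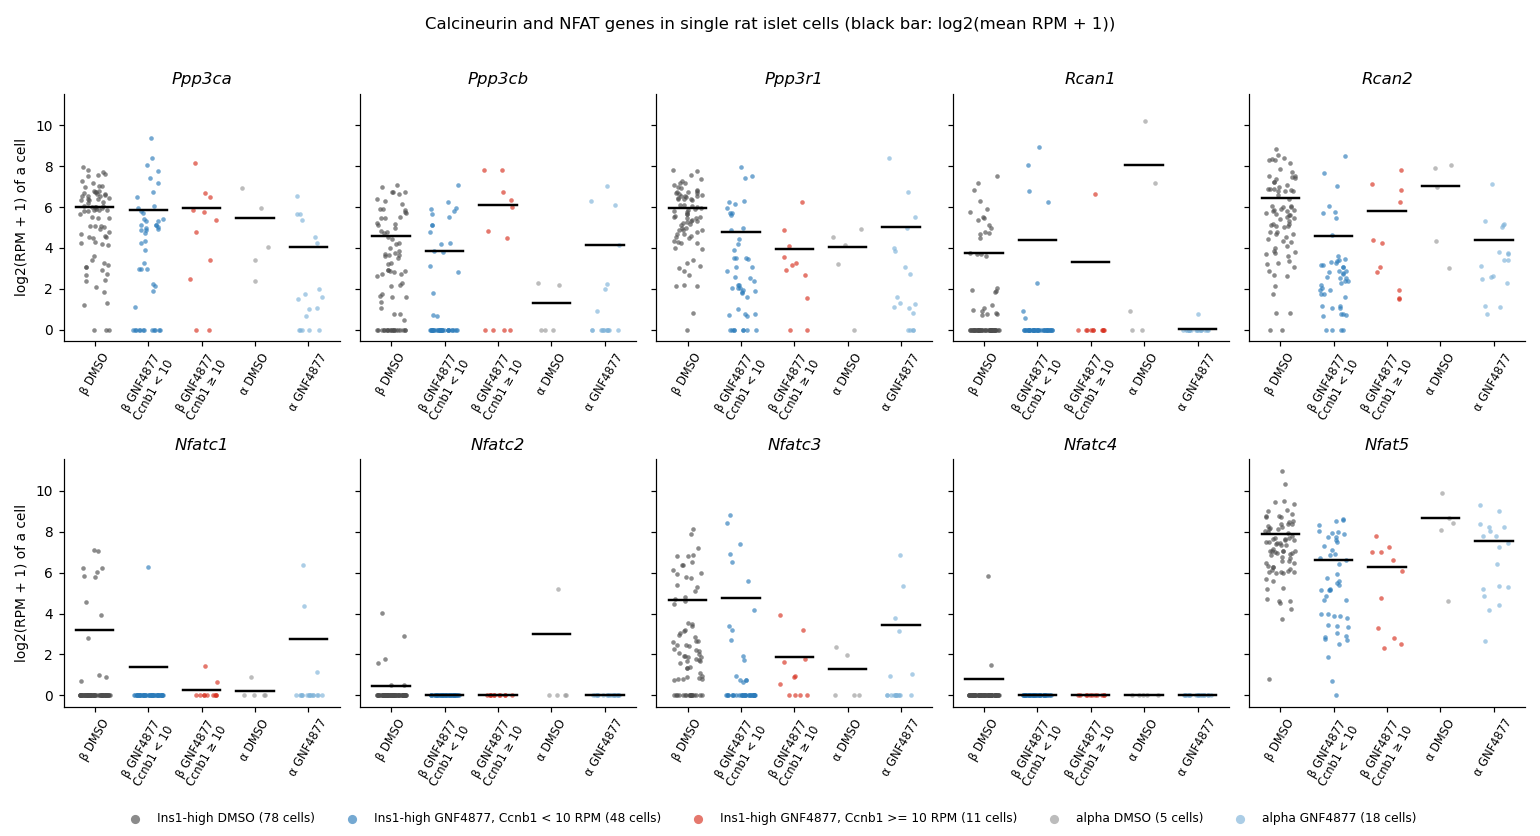
Each point is 1 cell and shows log2 of its RPM plus 1 for the gene above the panel. Groups are Ins1-high cells after DMSO (78), Ins1-high cells after GNF4877 with *Ccnb1* under 10 RPM (48) or at 10 RPM or more (11), and alpha cells after DMSO (5) and GNF4877 (18). Black bars mark log2 of the group's mean RPM plus 1, so a bar may stand above most points where a few cells hold most of the reads. Points are spread sideways only to keep them apart.

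Taking as lower or higher a log2 ratio of means, each plus 1 RPM, past 2-fold, 4 of the 10 members were lower after GNF4877 in Ins1-high cells (*Nfatc1*, *Nfat5*, *Rcan2*, *Ppp3r1*) and 0 were higher. Of all 17855 genes with a read in these cells, 14.5% were lower and 8% higher. The members' median log2 ratio was -0.62 against -0.08 for all genes, and at 100000 reads -0.69 against -0.18. Without the highest cell of the higher group for each gene it was -0.29 against -0.06, and without that of each group -0.43 against -0.12. With 10 RPM added to each mean it was -0.11 against -0.01. Among the genes read in at least 50% of the cells, a background chosen after the data had been seen, 3 of 6 members were lower (*Nfat5*, *Rcan2*, *Ppp3r1*) and 0 higher, where 8.84% of the 7491 genes were lower and 5.15% higher.

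The way the cells are averaged moves most of the members. On the mean of each cell's own log2 value, high values are compressed before averaging, so cells with no read count for more. All 10 members lay below 0 there, with a median of -1.03 against -0.24 for all genes. On that scale the ratio was -1.21 for *Ppp3ca*, -0.86 for *Ppp3cb*, -0.78 for *Rcan1* and -1.32 for *Nfatc3*, where the ratio of means gave 0.04 for *Ppp3cb* and 0.46 for *Rcan1*. The direction of those last 2 genes therefore flips with the scale, and that of *Ppp3cb* also when cells are thinned to 100000 reads (-0.23) or scaled without hormone reads (-0.03), while *Nfat5*, *Rcan2* and *Ppp3r1* were lower past 2-fold on each. *Nfatc1* was not: its ratio of -1.97 was -0.60 on the mean of each cell's log2 value and -0.68 with 10 RPM added to each mean.

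Shares of cells with a read were compared after thinning every cell to 100000 reads, which kept 76 and 58 Ins1-high cells. Exact 95% intervals, which describe the cells of 1 sample each and are no test between treatments, did not overlap for 4 members, each read in a smaller share after GNF4877, against 15.1% of 16665 genes with a smaller share and 0.528% with a larger one. Those 16665 include genes read in few cells, whose intervals can hardly stand apart. No such share was computed for well-read genes alone, so the count of 4 is not set against genes alike in detection. *Ppp3r1* was read in 71 of 76 cells (93.4%, 85.3 to 97.8) against 30 of 58 (51.7%, 38.2 to 65.05). For *Rcan2* the counts were 70 of 76 (92.1%, 83.6 to 97.05) against 30 of 58 (51.7%, 38.2 to 65.05). At full depth *Ppp3r1* intervals still stood apart and those of *Rcan2*, read in 76 of 78 and 55 of 59 cells, overlapped, so that its difference, too, is one of level. The number of genes read per cell differs between the groups at either depth.

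The other members with separate intervals were *Ppp3ca*, in 68 of 76 cells (89.5%, 80.3 to 95.3) against 35 of 58 (60.3%, 46.6 to 72.95), and *Nfatc3*, in 37 of 76 (48.7%, 37.0 to 60.4) against 11 of 58 (18.97%, 9.87 to 31.4). The intervals of *Nfatc3* overlapped once second-hormone cells were left out. *Nfat5* overlapped, with 74 of 76 (97.4%, 90.8 to 99.7) against 51 of 58 (87.9%, 76.7 to 95.01): its difference is one of level.

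**Figure D2:**
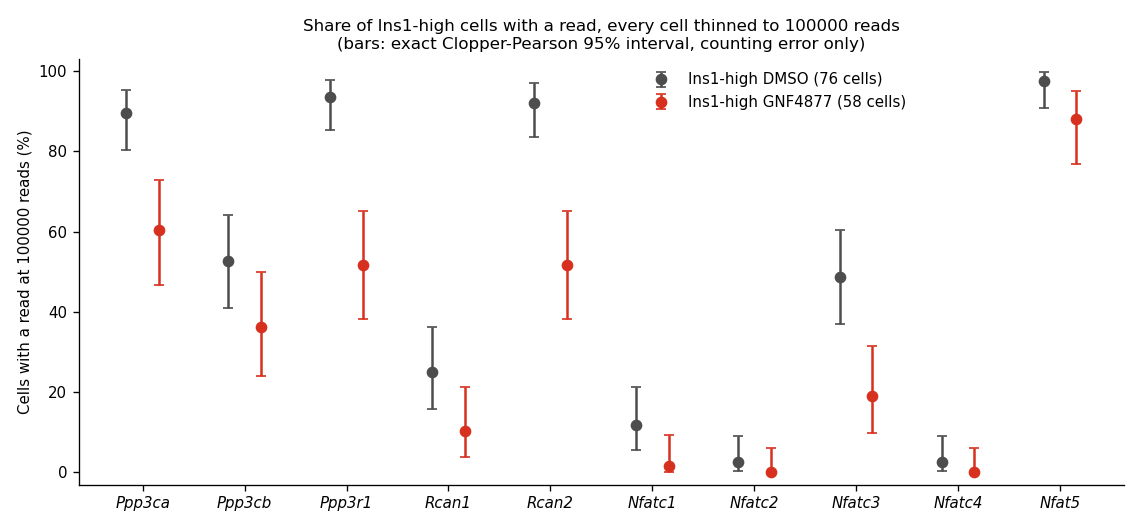
Share of Ins1-high cells with at least 1 read of each member once every cell was thinned to 100000 reads, in 76 DMSO cells (grey) and 58 GNF4877 cells (red). Bars are exact Clopper-Pearson 95% intervals and cover counting error alone. The intervals stand apart for *Ppp3ca*, *Ppp3r1*, *Rcan2* and *Nfatc3*.

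Calcineurin works as a pair of a catalytic and a regulatory subunit, so the subunits were also counted together in each cell, a count chosen after the data had been seen. At 100000 reads, *Ppp3r1* together with *Ppp3ca* or *Ppp3cb* was read in 67 of 76 Ins1-high DMSO cells (88.2%, 78.7 to 94.4) and in 25 of 58 GNF4877 cells (43.1%, 30.2 to 56.8). No catalytic transcript was read in 4 of 76 against 14 of 58 cells. At full depth the pair was read in 75 of 78 (96.2%) and 42 of 59 cells (71.2%, 57.9 to 82.2). These counts are not independent of the shares of the single subunits given above, and no other gene pairs were counted as a background. A median of 5 members per DMSO cell (2 to 8) and 3 per GNF4877 cell (1 to 6) had a read at equal depth, where the median of all genes read was 6621 and 4918.5.

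Members read in at least 50% of the cells of a treatment hardly moved together from cell to cell, and *Nfatc1*, *Nfatc2*, *Nfatc4* and *Rcan1*, read in fewer, were not paired. Over the 15 pairs of 6 members, Spearman correlations of RPM across the 78 Ins1-high DMSO cells ran from -0.11 to 0.26 with a median of 0.12, highest for *Ppp3ca* with *Ppp3cb*. Over the 6 pairs of 4 members (*Nfat5*, *Rcan2*, *Ppp3ca*, *Ppp3r1*) across the 59 GNF4877 cells they ran from -0.18 to 0.19. The cells of each set share a plate and a lane and differ in depth. A cell rich in 1 of these members was not reliably rich in another.

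*Ccnb1* encodes cyclin B1, which accumulates toward mitosis. At 10 RPM or more it marked 11 of the 59 Ins1-high GNF4877 cells and 1 of the 78 DMSO cells. Between the 11 and the other 48 GNF4877 cells, all of the same sample, 8 members had a read: 3 were lower in the *Ccnb1* cells and 2 higher, where 21% of 15922 genes were lower and 13.9% higher. The members' median was -0.57 and that of all genes -0.09, or -0.28 at 100000 reads. The members' median turned to 0.03 on the mean of each cell's log2 value, with 5 members above 0 and 3 below, and was -0.17 without the highest cell of the higher group for each gene. The *Ccnb1* cells had more genes read, a median of 7527 against 6924.5, and β-cell markers at a median sum of 21570 RPM against 10613 RPM, whose part in the values was not tested.

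*Rcan2* was higher in the *Ccnb1* cells. It ran from 1.79 over 18.1 to 221 RPM in the 11 *Ccnb1* cells and from 0 over 4.87 to 363 RPM in the 48 others, with means of 55.5 and 22.999 RPM (log2 ratio 1.24, but 0.73 without the highest *Ccnb1* cell and 0.51 with any *Ccnb1* read as the rule). At equal depth it was read in 10 of 11 cells (90.9%, 58.7 to 99.8) and 20 of 47 (42.6%, 28.3 to 57.8). It was the only member whose intervals stood apart, a larger share, which 0.909% of 14628 genes also showed. At full depth, 11 of 11 and 44 of 48 cells held it and the intervals overlapped. Set against the DMSO cells, its log2 ratios were -0.61 in the *Ccnb1* cells, or -1.11 without the highest of them, and -1.85 in the others.

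*Ppp3cb* was the other member higher past 2-fold. It ran from 0 over 27.7 to 225 RPM against 0 over 0 to 136 RPM, with means of 67.9 and 13.6 RPM, 4.99-fold higher (log2 ratio 2.24), and was read in 7 of 11 against 19 of 48 cells. Against the DMSO cells its log2 ratio was 1.52 in the *Ccnb1* cells and -0.72 in the others. The near-equal *Ppp3cb* means of the treatments thus join treated cells of a higher mean, carried by few cells, with others of a lower mean.

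*Nfatc3* lay the other way. The 11 *Ccnb1* cells ran from 0 over 0.844 to 14.4 RPM and the 48 others from 0 over 0 to 452 RPM, with means of 2.67 and 26.4 RPM (log2 ratio -2.90, or -1.01 with any *Ccnb1* read as the rule). At 10 RPM or more of *Nfatc3* stood 7 of the 48 others and 1 of the 11 *Ccnb1* cells, the one at 14.4 RPM. The mean of each cell's log2 value differed by only -0.17. The transcript was read in 7 of 11 *Ccnb1* cells against 17 of 48 at full depth and in 1 of 11 against 10 of 47 at 100000 reads, so the order of the shares turns with depth.

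*Rcan1* had a read in 1 of 11 *Ccnb1* cells, at 99.7 RPM, and in 7 of 48 others, with means of 9.07 and 19.8 RPM (log2 ratio -1.05). The ratio was -0.09 without the highest of the others, -4.38 without that *Ccnb1* cell and -3.42 without both. With any *Ccnb1* read as the rule it was -1.99, so its size rests on single cells and on the rule. *Nfatc1*, with 3 reads in the *Ccnb1* cells and 83 in the others, all of those in 1 cell, was the remaining member counted as lower, and no fold is given for it. *Ppp3r1* (log2 ratio -0.79), *Nfat5* (-0.34) and *Ppp3ca* (0.08, or -0.57 without the highest *Ccnb1* cell) lay inside 2-fold, though *Ppp3r1* was at -1.23 without the highest cell of each group, -1.001 at 100000 reads and 0.00348 on the mean of each cell's log2 value, and *Nfatc2* and *Nfatc4* had no read in either set. Low *Ppp3r1* and *Nfat5* were common to both sets of treated cells: against the DMSO cells the log2 ratios were -1.99 and -1.60 in the *Ccnb1* cells and -1.20 and -1.26 in the others.

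The lone DMSO cell with *Ccnb1* at 10 RPM or more, at 49.4 RPM, held 11547 RPM of *Ins1* and also the 11248 RPM of mesenchymal markers named above. Its values were 130.5 RPM for *Nfat5*, 74.04 for *Ppp3ca*, 41.4 for *Rcan2*, 30.9 for *Ppp3r1* and 11.5 for *Ppp3cb*. *Nfatc3*, *Nfatc4* and *Nfatc1* were at 2.64, 1.76 and 0.881 RPM, and *Rcan1* and *Nfatc2* had no read. All 5 of the higher values lie inside the range of the other Ins1-high DMSO cells.

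In alpha cells the members could be set side by side in 5 DMSO and 18 GNF4877 cells. Of the 9 with a read, 5 were lower after GNF4877 (*Nfatc2*, *Nfat5*, *Rcan1*, *Rcan2*, *Ppp3ca*) and 3 higher (*Nfatc1*, *Nfatc3*, *Ppp3cb*), where 20.3% of 14718 genes were lower and 30.2% higher. The members' median log2 ratio was -1.09 against 0.18 for all genes, and the latter was 0.49 at 100000 reads and -0.20 on the mean of each cell's log2 value. The members' median was -0.17 without the highest cell of the higher group for each gene and 0 without that of each group. No member's share of cells with a read had intervals that stood apart, as was the case for nearly all genes (0.372% of 13163 smaller, 0.0532% larger). With 5 control cells, single cells decide most of these means, and they are named below. Besides the β-cell markers, other markers differed between the DMSO and GNF4877 alpha cells. Delta-cell markers had medians of 9.73 and 127.1 RPM, but means of 379.9 and 167.4 RPM. Duct markers had medians of 79.04 and 124.2 RPM. Mesenchymal markers had medians of 2.61 and 0 RPM, but means of 2.43 and 128.8 RPM. The part of these markers in the members' values was not tested.

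*Rcan2* was at 6.97, 124, 264, 243 and 19.5 RPM in the 5 DMSO alpha cells and ran from 0.705 over 9.59 to 137 RPM in the 18 treated ones. The means were 132 and 20.1 RPM (log2 ratio -2.65, or -2.24 without the highest DMSO cell). As in Ins1-high cells it was present in nearly all cells and low in most treated ones, with 2 of the 5 DMSO cells above every treated cell.

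*Nfat5* was at 23.5, 345, 404, 272 and 962 RPM after DMSO and ran from 5.36 over 161 to 632 RPM after GNF4877. The means were 401 and 187 RPM (log2 ratio -1.09), and -0.48 without the DMSO cell at 962 RPM, so the ratio passes 2-fold by that cell. *Ppp3ca* was at 15.7, 61.8, 4.16, 121 and 9.73 RPM after DMSO and ran from 0 over 1.94 to 90.6 RPM after GNF4877 (log2 ratio -1.39, or -0.52 without the highest DMSO cell). The direction held without those cells and the size did not.

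*Rcan1* was at 0.871, 0, 1164, 145 and 0 RPM in the 5 DMSO alpha cells, and 1164 RPM is its highest value in any Ins1-high or alpha cell. In the 18 treated cells it had 1 read, 0.675 RPM. A DMSO cell with 1164 RPM held 88.9% of its group's sum, and 2 of the 5 cells carry the whole difference. *Nfatc2* likewise had 12 reads in 1 DMSO cell, at 35.5 RPM, and none in the 18 treated cells.

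The 3 members counted as higher were read in few cells. *Ppp3cb* was at 3.49, 3.91, 0, 0 and 0 RPM after DMSO and was read in 7 of 18 treated cells, up to 129 RPM (means 1.48 and 16.6 RPM, log2 ratio 2.83, or 2.15 without the highest treated cell). *Nfatc3* was at 0, 0, 4.16, 2.96 and 0 RPM and was read in 6 of 18 treated cells, up to 116 RPM (log2 ratio 2.17, or 0.93 without the highest). *Nfatc1* had 1 read in the DMSO cells and was at 82.4, 19.9 and 1.19 RPM in 3 of 18 treated cells. *Ppp3r1* was at 29.6, 21.9, 8.32, 0 and 16.7 RPM against 0 over 1.77 to 332 RPM, and its log2 ratio of 0.98 is -0.17 without the treated cell at 332 RPM. *Nfatc4* had no read in either set. On the ratio of means *Rcan2* was lower past 2-fold in both cell types also without the highest DMSO cell. On the mean of each cell's log2 value *Rcan2* (-2.62), *Nfat5* (-1.29) and *Ppp3ca* (-2.25) were lower past 2-fold in alpha cells, as they were in Ins1-high cells, on a scale where 25.1% and 18.5% of all genes were.

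Around the core, 40 of 41 listed genes of calcium signalling, calcineurin anchoring and NFAT control were in the table. In Ins1-high cells 37 had a read, of which 8 were lower after GNF4877 and 0 higher, where 14.5% of all genes were lower and 8% higher, with a median log2 ratio of -0.29 against -0.08. *Mef2a*, a transcription factor that calcineurin also activates, had means of 66.3 and 13.2 RPM (log2 ratio -2.25). *Cacna1c*, a pore subunit of L-type calcium channels, was at 15.9 and 4.37 RPM (-1.65), and *Stim2*, a calcium sensor of the endoplasmic reticulum, at 60.2 and 29.5 RPM (-1.005, or -0.87 without the highest DMSO cell). The other 5, named here after their values were seen, were the IP3 receptors *Itpr1* (-2.36) and *Itpr2* (-2.07), the scaffolds *Homer1* (-2.56) and *Homer2* (-1.74), and *Ppp3cc* (-1.09, or -0.90 without the highest DMSO cell), a further catalytic isoform, read in 24 of 78 and 6 of 59 cells. Among the 36 regulators read in the *Ccnb1* split 12 were lower and 5 higher (all genes 21% and 13.9%), and among the 35 read in alpha cells 6 were lower and 14 higher (all genes 20.3% and 30.2%). Without the highest cell of the higher group for each gene, the counts were 6 and 0 in Ins1-high cells (all genes 10.2% and 3.43%), 9 and 1 in the *Ccnb1* split (17.4% and 4.49%) and 5 and 8 in alpha cells (8.43% and 21.6%), so several rest on single cells.

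Some regulators, picked after their values were seen, lay above 0 without passing 2-fold. *Fkbp1a*, which encodes the binding protein of the calcineurin inhibitor tacrolimus, had means of 229 and 456 RPM (log2 ratio 0.99). *Ppia*, which encodes that of cyclosporin, was at 302 and 483 RPM (0.68). The transcripts of the kinases that GNF4877 inhibits were inside 2-fold too: *Gsk3b* at 135 and 205 RPM (log2 ratio 0.60) and *Dyrk1a* at 7.71 and 10.8 RPM (0.44, or -0.41 without the highest GNF4877 cell), the latter in 29 of 78 and 9 of 59 cells. On the mean of each cell's log2 value these kinase genes turn to -0.71 and -0.68. In the *Ccnb1* split both were lower past 2-fold, *Gsk3b* at -1.25 and *Dyrk1a* at -3.75, or -1.16 and -2.89 without the highest of the other cells. On the mean of each cell's log2 value they were at -1.24 and -0.70. *Dyrk1a* had 1 read in the 11 *Ccnb1* cells and was read in 8 of the 48 others. A single cell held 49.5% of the sum of those others, so the size of its ratio rests on few cells. In alpha cells *Gsk3b* was at -0.23, or 0.67 without the highest DMSO cell. *Dyrk1a* was at 2.90 there, or 1.69 without the highest GNF4877 cell.

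Of 20 listed genes known as NFAT targets or β-cell genes downstream of calcineurin, 5 were lower after GNF4877 in Ins1-high cells and 3 higher, where 14.5% of all genes were lower and 8% higher, with a median log2 ratio of -0.17 against -0.08. *Irs2*, an adaptor of insulin signalling, had means of 77.4 and 7.28 RPM (log2 ratio -3.24). *Ccnd2*, a D-type cyclin gene, was at 348 and 147 RPM (-1.24), and the immediate early genes *Nr4a1* and *Nr4a2* had log2 ratios of -1.22 and -1.30. *Iapp*, the gene of islet amyloid polypeptide, was at 1578 and 4539 RPM (1.52). Known targets thus lay on either side, as did the remaining ones past 2-fold, named after their values were seen: *Hnf4a* (-1.28, or -0.93 without the highest DMSO cell), *Ccna2* (1.34, or 0.41 without the highest GNF4877 cell) and *Ezh2* (1.69).

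In the *Ccnb1* split 18 targets had a read, of which 0 were lower and 6 higher (all genes 21% and 13.9%, median 0.46 against -0.09). The cycle genes *Foxm1* (log2 ratio 5.85), *Ccna2* (3.27) and *Ezh2* (2.09) share the choice of cells by *Ccnb1*, and *Ins2* (1.69) and *Irs2* (1.15) were also among the higher, these 5 named after their values were seen. The last 2 pass 2-fold by the highest *Ccnb1* cell of each: without it they were 0.54 and 0.57. In alpha cells 19 had a read, with 9 lower and 4 higher (all genes 20.3% and 30.2%) and a median of -0.89 against 0.18. Without the highest cell of the higher group for each gene, 4 targets were lower and 2 higher in Ins1-high cells (all genes 10.2% and 3.43%), 0 and 3 in the split (17.4% and 4.49%), and 6 and 3 in alpha cells (8.43% and 21.6%).

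Likeness from cell to cell was measured among the members and genes read in at least 50% of the cells. Across the 59 Ins1-high GNF4877 cells (6232 genes), 11 genes reached a Spearman correlation of 0.6 with *Rcan2*, the highest being the magnesium transporter gene *Slc41a2* (0.64) and *Prdm8* (0.64), and 1 with *Ppp3r1*, the splicing gene *Snrnp27* (0.62). These cells share a plate and differ in the number of genes read, with which *Rcan2* and *Ppp3r1* themselves correlated at 0.35 and 0.27. Across the 78 DMSO cells (8466 genes) none reached 0.6, the highest being *Ppp3ca* with *Vat1* at 0.57.

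Promoter sequences from RefSeq (build GRCr8, the 250 bases before the start) were at hand for 6 of the 10 members: *Nfatc2*, *Rcan1*, *Rcan2*, *Ppp3ca*, *Ppp3cb* and *Ppp3r1*. They were searched on both strands for the core of the NFAT motif, GGAAA, read as TTTCC on the other strand, which 56.9% of 33469 promoters of this length hold at least once. *Rcan1* had 2 matches, *Ppp3cb* and *Ppp3r1* 1 each, and *Rcan2*, *Ppp3ca* and *Nfatc2* 0. A match is a description, not a site or a cause. *Rcan1* is a known NFAT target, and *Rcan2* and *Ppp3r1* were each lower past 2-fold in Ins1-high cells. The sequences of *Rcan1* (chr11:45118237-45118486, minus strand), *Rcan2* (chr9:24672190-24672439, minus strand) and *Ppp3r1* (chr14:95769596-95769845, plus strand) are shown with matches in capitals.
Rcan1: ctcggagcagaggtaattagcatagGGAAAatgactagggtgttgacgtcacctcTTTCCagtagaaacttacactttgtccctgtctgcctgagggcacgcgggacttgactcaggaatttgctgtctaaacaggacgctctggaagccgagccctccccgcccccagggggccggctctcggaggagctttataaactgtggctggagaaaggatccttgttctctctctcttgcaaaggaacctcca
Rcan2: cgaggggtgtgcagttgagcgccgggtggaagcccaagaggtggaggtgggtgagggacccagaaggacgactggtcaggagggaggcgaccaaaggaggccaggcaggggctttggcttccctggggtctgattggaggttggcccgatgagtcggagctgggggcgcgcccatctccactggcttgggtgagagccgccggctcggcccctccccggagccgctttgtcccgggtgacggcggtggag
Ppp3r1: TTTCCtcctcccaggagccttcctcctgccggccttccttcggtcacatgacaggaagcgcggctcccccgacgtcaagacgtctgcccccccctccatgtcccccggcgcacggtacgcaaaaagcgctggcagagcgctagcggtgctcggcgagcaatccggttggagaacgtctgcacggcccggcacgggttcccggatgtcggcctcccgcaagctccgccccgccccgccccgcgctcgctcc
The *Rcan1* window holds the letters once in each orientation, the *Ppp3r1* window opens with them, and the *Rcan2* window does not hold them.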

How the data were processed

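The deposited table gives RPM, which the authors computed per cell as reads of a transcript scaled to 1000000 mapped reads. Per the submitters' processing notes, reads were handled with CASAVA 1.8.2, BWA 0.5.9 and SAMtools 0.1.19, and cells with more than 100000 mapped reads from ports that held a single cell were kept. Although the methods speak of a mouse transcriptome, transcripts in the table are those of rat RefSeq. The table has 27586 transcripts of 24113 genes. The value 0.01, its floor (69.7% of values), was set to 0, transcripts of a gene were summed, and reads were recovered from the smallest step of each cell's values.

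Groups were set by *Ins1*, *Gcg* and *Ccnb1* as in the report. Each ratio is log2 of mean RPM plus 1 over mean RPM plus 1, called past 2-fold. Shares carry exact 95% intervals, and read sums Poisson intervals. Reads listed per cell (at least 9840) set what could be read, and cells were thinned to 100000. Doublets were not removed. Genes outside the core were named where they were past 2-fold in Ins1-high cells and read in at least 50% of the cells of the higher group, up to 8 a list, and for likeness the 2 genes with the highest Spearman correlation with a member, where it was 0.6 or more. Others are said to be named after their values were seen. Members and lists were chosen with earlier results of these data known. Alternatives were pseudocounts of 0.1 and 10 RPM, the difference of mean log2 values, hormone thresholds of 10000 RPM, second-hormone cells left out, any *Ccnb1* read, thinning, the highest transcript of a gene, scaling without hormones, the top cell left out of each group, genes with a mean of at least 1 RPM and, for shares, full depth or 10 RPM. Added after seeing the data were the top cell of the higher group left out (for members and lists), cells under 100000 listed reads left out, and genes read in at least 50% of cells. Calculations ran in Python 3.11.15 with pandas 2.3.3, on numpy 2.4.6; intervals came from scipy 1.17.1, plots from matplotlib 3.10.9. The ratio and thinning steps were tested on cells simulated from a pooled DMSO profile, which lack the spread from cell to cell seen here. Shares, intervals and correlations were not tested in this way.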

Additional observations from a re-analysis of the deposited data

Results flagged for a closer look

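*Nfatc4* was at 101 RPM, from 186 reads, in 1 GNF4877 cell that is neither Ins1-high nor an alpha cell and so enters no comparison above. What set it apart is that no compared cell reached this level: the highest, an Ins1-high DMSO cell, was at 56.1 RPM. The cell held 33.6 RPM of *Ins1*, 50.99 RPM of *Gcg*, 608 RPM of *Ccnb1* and 12950 RPM of the mesenchymal markers. The Ins1-high DMSO cell with 11248 RPM of these markers held 1.76 RPM of *Nfatc4*. A DMSO cell in neither class, with 5543 RPM of them, held 1.58 RPM. Whether these markers and *Nfatc4* go together was not tested, since so few cells held *Nfatc4*.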

How the results depend on the processing

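No paired analysis was possible because DMSO and GNF4877 are 1 sample each. In Ins1-high cells 4 members were lower after GNF4877, with a range of 3 to 6 over the alternatives, and 0 were higher under every alternative run. The share of all genes moved as well. It was 3.28% lower with a pseudocount of 10 RPM, which gave 3 members, and 23.6% with 0.1 RPM, which gave 6. The share of all genes that were higher ran from 1.35% to 11.7%. The 4 members with a smaller share of cells at equal depth were 5 at full depth (without *Rcan2*, with *Rcan1* and *Ppp3cb*; 16.7% of all genes), 3 at 10 RPM or more (*Nfat5*, *Rcan2*, *Ppp3r1*; 12.5%) and 3 without second-hormone cells (*Rcan2*, *Ppp3ca*, *Ppp3r1*; 10.6%). The other counts moved more, and the cause was not tested. In the *Ccnb1* split, with 3 members lower and 2 higher, a pseudocount of 10 RPM gave 1 and 1 (all genes 7.66% and 7.26%). The mean of each cell's log2 value gave 0 lower (all genes 5.09%). *Ins1* at 10000 RPM gave 1 higher (14.1%) and any *Ccnb1* read 1 higher (14.8%). Leaving out the top cell of the higher group gave 1 lower and 1 higher (all genes 17.4% and 4.49%). Genes read in at least 50% of cells gave 0 lower and 1 higher (11.5% and 8.12%). Both were chosen after seeing the data. In alpha cells, with 5 lower and 3 higher, 4 were higher with a pseudocount of 0.1 RPM, without second-hormone cells and at 100000 reads, a pseudocount of 10 RPM gave 1 higher, the mean of log2 values 0 higher and the top cell left out of each group 2 lower. Alternatives chosen after seeing the data gave 2 lower and 1 higher without the top cell of the higher group (all genes 8.43% and 21.6%). Among genes read in at least 50% of cells they gave 3 lower and 0 higher (13.6% and 27.3%). The log2 ratio of *Nfatc1* in the *Ccnb1* split, -1.10, turned to 0.0602 on the mean of log2 values, 0.27 with *Ins1* at 10000 RPM, 0.0834 without the top cell of each group and 0.27 without that of the higher group: the cause was not tested. Of 305 member ratios under alternatives, 22 changed sign, and in 4 of these, those of *Nfatc1* above, the main ratio was past 2-fold. Of all 305, 181 stayed within their counting interval. Depth limits members with few reads: a cell without a read may still hold the transcript.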

Other observations

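Of the 10 cells in neither class, 3 after DMSO and 7 after GNF4877, some held members at high levels and some did not. A DMSO cell with 45021 RPM of *Ppy*, the gene of pancreatic polypeptide, and 5543 RPM of mesenchymal markers held 429.9 RPM of *Nfat5*, 143 of *Ppp3ca* and 91.7 of *Nfatc3*. A DMSO cell with 71736 RPM of acinar markers held 149.7 RPM of *Ppp3r1* and 38.9 of *Nfat5*. A GNF4877 cell with 35288 RPM of *Sst*, the somatostatin gene, and 1460 RPM of *Ccnb1* held 197 RPM of *Nfat5* and 117 of *Ppp3r1*. A GNF4877 cell with 59533 RPM of *Ppy* held 562 RPM of *Nfat5* and no read of *Ppp3ca*. Another, with 70421 RPM of *Ppy*, held 33.1 RPM of *Nfat5* and 250.5 of *Ppp3ca*. A further one, with 30112 RPM of *Ppy*, held 4.78 RPM of *Nfat5*, 1.79 of *Ppp3r1* and no read of *Ppp3ca*. A GNF4877 cell of 39211 listed reads with 5836 RPM of acinar markers held at most 6.69 RPM of any member, *Rcan2*. Each is a single cell and is given as a value only.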
